A study of Homo sapiens with 9 samples.

Results

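The nuclear genes that encode the mitochondrial respiratory chain and ATP synthase were examined after knockdown of Cyclin K in A549, a human lung cancer cell line. Members were chosen by symbol only: the NDUFA, NDUFB, NDUFC, NDUFS, NDUFV, SDH, UQCR, COX4 to COX8 and ATP5 families, without pseudogenes. These names matched 82 symbols on 81 rows, out of 31080 reference genes in the files, because ATP5MF-PTCD1 shares the row of ATP5MF. By role, 35 genes were placed in complex I, 4 in complex II, 9 in complex III, 13 in complex IV and 20 in complex V. Gene NDUFA4 was counted in complex IV, where its protein is found, although its name is that of a complex I subunit.

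A549 cells had been transfected for 48 h with a scrambled siRNA (siCtrl in the labels), with siCyclin K#1 or with siCyclin K#2, both directed against CCNK, the gene of Cyclin K. Each group had 3 libraries of total RNA, 9 in all, described by the submitters as independent samples without saying of what, so that p-values measure the spread between these samples. All libraries come from this single cell line and differ by transient transfection only, with no untransfected cells among them. The culture medium is RPMI-1640 in the labels and DMEM in the methods. Values are FPKM, which relates the fragments of a gene to its length and to the depth of its library, so genes of different length can be set side by side. Depth was estimated at 31333749 to 33767961 reads per library. CCNK had an FPKM of 7.02 in scrambled cells, 0.809 with siCyclin K#1 and 0.844 with siCyclin K#2. Of the epithelial markers looked up, KRT8 and KRT18 stood at 55.3 and 83.2 in scrambled cells and CDH1 at 1.64, while KRT19 and EPCAM were close to 0. KRT8 was at 94.9 and 97.4 with siCyclin K#1 and siCyclin K#2, and CDH1 at 3.88 and 1.71. KRT18 was lower with siCyclin K#1, with log2 fold changes of -0.17 and 0.12. The part of these markers in the results was not tested. The 5 markers of blood, vessel and stromal cells that were found summed to between 0.0144 and 0.110 on average in the groups. RNA was taken from whole cultures, so a change in all cells and a change in only some of the cells cannot be told apart.

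The respiratory chain passes electrons from NADH (complex I) and succinate (complex II) through ubiquinone to complex III, then through cytochrome c to oxygen at complex IV. The proton gradient so built drives ATP synthase (complex V). Complex II is encoded in the nucleus alone, whereas the other complexes also hold subunits made from mitochondrial DNA, so their assembly draws on both genomes. Cyclin K is the partner of CDK12 and CDK13, kinases that act on RNA polymerase II during transcription.

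After knockdown of Cyclin K, more respiratory chain genes were lower than higher, and most changes were small. The summed FPKM of the members was 2569 to 2589 in scrambled libraries, 2256 to 2403 with siCyclin K#1 and 2322 to 2389 with siCyclin K#2. Differences were tested with limma on log2(FPKM + 0.1), with Benjamini-Hochberg adjustment over 21048 genes, and fold changes are on that scale. One member, ATP5MGL, had an FPKM between 0 and 0.120 in the 9 libraries and was not tested, which left 80 members. With siCyclin K#1, 35 of 80 members were lower and 18 were higher at an adjusted p under 0.05, where 18.1% of all tested genes were lower and 26.8% higher. With siCyclin K#2, 29 members were lower and 16 higher, where 15.2% of all genes were lower and 19.8% higher. The median log2 fold change of the members was -0.14 with siCyclin K#1 and -0.11 with siCyclin K#2, against 0.10 and 0.01 over all tested genes. Among the 11243 genes whose FPKM averaged 1 or more, these medians were 0.08 and 0.04, and 27.8% and 22.4% of the genes were lower. After median-ratio rescaling between libraries the split was 43 lower and 11 higher with siCyclin K#1, and 33 lower and 11 higher with siCyclin K#2. The count of 18 higher members also fell to 11 when scrambled library 1 was left out.

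When both siRNAs were pooled against scrambled siRNA, 23 members were lower and 10 higher, with 11.5% and 17.0% of all genes. Taking each siRNA by itself, 22 members fell with both, 11 rose with both, 5 passed in opposite directions, 22 passed with 1 siRNA and 20 with neither. Of all tested genes 10.3% fell with both, 15.4% rose with both, 1.82% passed in opposite directions, 24.9% passed with 1 siRNA and 47.7% with neither, so that the share of members that rose with both (13.8%) was near that of all genes. Among the 11243 genes whose FPKM averaged 1 or more, 2720 rose with both, a larger share than in the members. Of those genes 1831 fell with both and 2915 passed with neither. The comparisons of each siRNA with scrambled siRNA share the scrambled libraries. When more than a 3-fold difference with an unadjusted p below 0.01 was asked for, 3 members passed with siCyclin K#1 (4.67% of all genes), among them NDUFA5 and ATP5MD. With siCyclin K#2 and in the pooled comparison 0 members passed in limma, with 1.94% and 2.29% of all genes. At an unadjusted p under 0.05 alone, 50 and 39 members passed in these comparisons (62.5% and 48.8%), where 43.0% and 39.0% of all genes did.

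**Figure D1:**
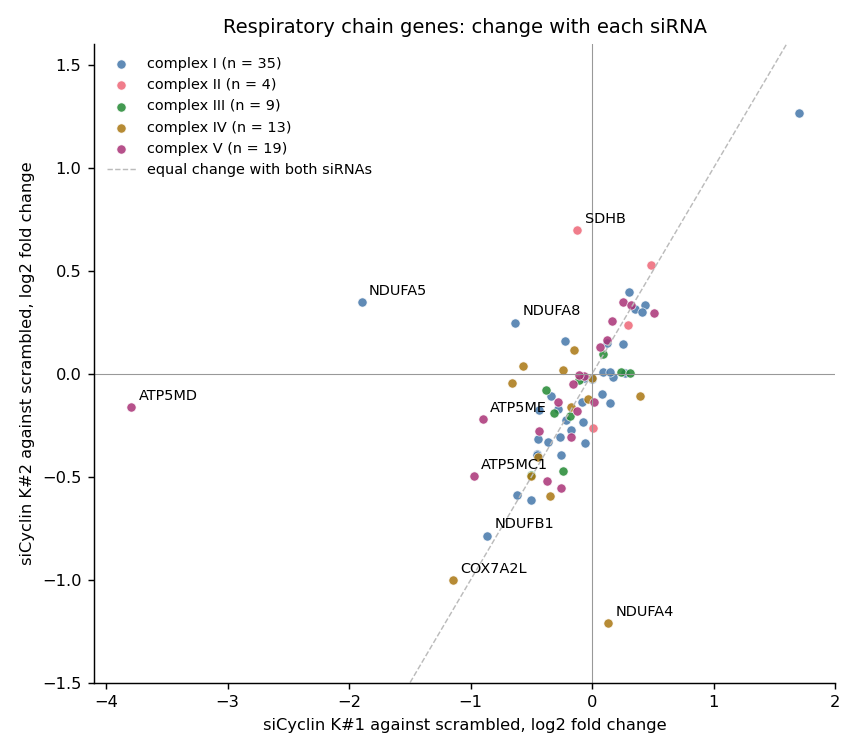
Log2 fold change of the 80 tested members against scrambled siRNA, with siCyclin K#1 on the horizontal axis and siCyclin K#2 on the vertical axis, coloured by complex; the axes have different ranges and the dashed line marks equal change. Most members lie along that line near 0, while ATP5MD, NDUFA5 and NDUFA4 stand far from it.

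The largest difference from scrambled cells was that of ATP5MD, a small subunit in the membrane part of ATP synthase. Its FPKM in scrambled cells was 60.7, 60.4 and 56.0. The siCyclin K#1 libraries gave 3.89, 4.69 and 3.96, and those of siCyclin K#2 gave 53.8, 52.5 and 51.9. The siCyclin K#1 libraries thus stood far below all others, while the siCyclin K#2 libraries lay just below the scrambled ones. ATP5MD fell by 3.79 on the log2 scale with siCyclin K#1 (SE 0.07, adjusted p = 6.8e-09 in limma), to 7.08% of the scrambled mean. With siCyclin K#2 the log2 fold change was -0.16 (adjusted p = 0.11), which passed the test after median-ratio rescaling and when siCyclin K#1 library 2 was left out. The difference between the siRNAs was -3.63 (95% interval -3.79 to -3.47, adjusted p = 6.1e-08). The row of ATP5MD, on the minus strand of chromosome 10 of GRCh38 (103389041 to 103396466), also carries the microRNA gene MIR1307, and the gene TAF5 overlaps it on the other strand. Whether the counting used strand is not given in the sources used here.

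NDUFA5, an accessory subunit of the matrix arm of complex I, had an FPKM of 2.86, 3.04 and 2.93 in scrambled cells, 0.706, 0.687 and 0.761 with siCyclin K#1, against 3.81, 3.59 and 3.92 with siCyclin K#2. No groups overlapped, and the siRNAs lay on opposite sides of the scrambled libraries. It fell by 1.90 with siCyclin K#1 (SE 0.08, adjusted p = 2.3e-07) and rose by 0.35 with siCyclin K#2 (adjusted p = 0.0069), and the siRNAs differed by -2.24 (adjusted p = 4.2e-07). The values rest on 212 to 1231 reads per library. NDUFA4, which sits in complex IV, moved the other way. Its FPKM was 31.2, 33.0 and 31.7 in scrambled cells, 35.9, 33.8 and 35.6 with siCyclin K#1, against 13.8, 14.4 and 13.2 with siCyclin K#2. It fell by 1.21 with siCyclin K#2 (SE 0.04, adjusted p = 3.2e-07), to 43.1% of the scrambled mean, and the siRNAs differed by 1.34 (adjusted p = 3.5e-07). The groups did not overlap. The smaller difference of 0.13 with siCyclin K#1 (adjusted p = 0.036) did not pass the threshold when any of scrambled libraries 1 and 3 or siCyclin K#1 libraries 1 and 3 was left out.

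Set against siCyclin K#2 directly, siCyclin K#1 had 12 members higher and 14 lower, where 17.1% of all tested genes were higher and 12.3% lower. Past a 3-fold difference there were 2 members (ATP5MD and NDUFA5), with 1.53% of all genes. The 12 fell to 6 without siCyclin K#1 library 2, and the split was 8 higher and 16 lower after median-ratio rescaling and 15 higher and 11 lower after quantile normalization. With a difference of at least 0.5 in log2, SDHB, COX6C, COX7A2, ATP5ME and NDUFA8 joined ATP5MD, NDUFA5 and NDUFA4. COX6C and COX7A2, small subunits of complex IV, fell by 0.66 and 0.57 with siCyclin K#1, and their values with siCyclin K#2 were -0.04 and 0.04. ATP5ME, another small membrane subunit of ATP synthase, fell by 0.90 with siCyclin K#1 and its value was -0.22 with siCyclin K#2. NDUFA8, a subunit of the membrane arm of complex I with cysteine motifs typical of the intermembrane space, had an FPKM of 30.1 ± 1.7 in scrambled cells, 19.4 ± 1.6 with siCyclin K#1 and 35.8 ± 3.2 with siCyclin K#2 (SD, n = 3). It fell by 0.63 with siCyclin K#1, and the siRNAs differed by -0.88 (adjusted p = 7.4e-05 in limma). Its rise of 0.25 with siCyclin K#2 had an adjusted p of 0.044 and lost the threshold without any of the 3 scrambled libraries, siCyclin K#1 library 2, or siCyclin K#2 library 1 or 2.

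**Figure D2:**
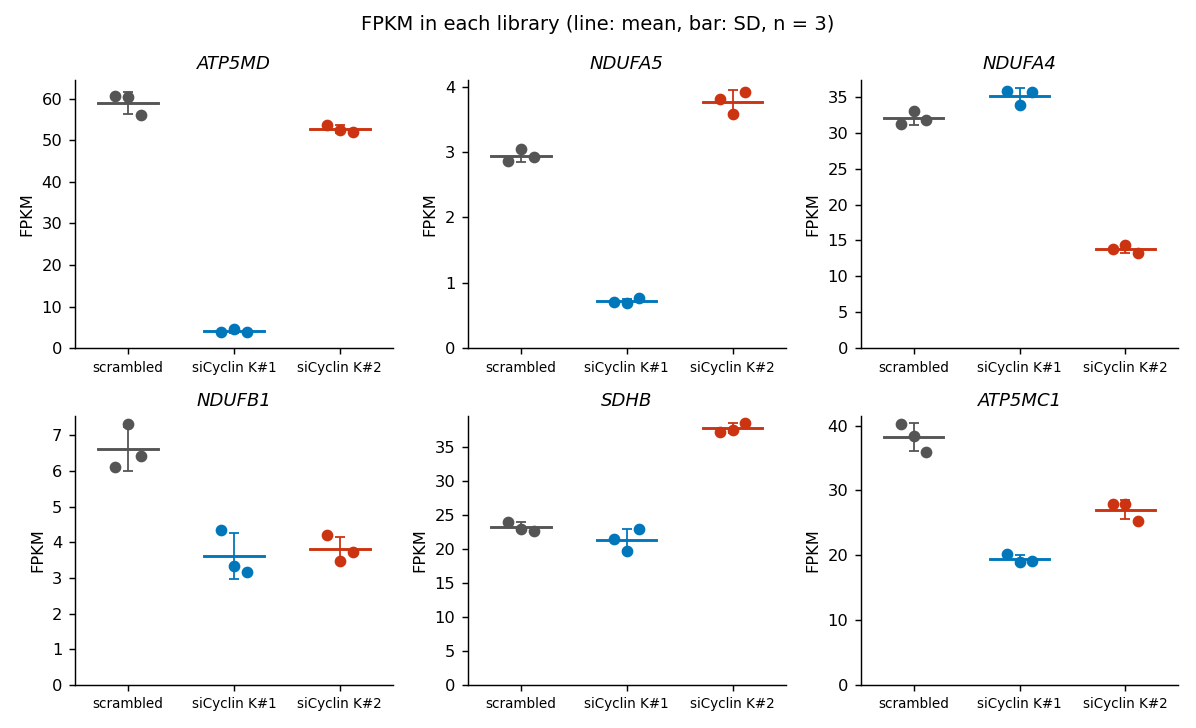
FPKM of ATP5MD, NDUFA5, NDUFA4, NDUFB1, SDHB and ATP5MC1 in each of the 9 libraries, with a point per library, the mean as a line and the SD as a bar (n = 3). ATP5MD and NDUFA5 are low in the siCyclin K#1 libraries only, NDUFA4 in the siCyclin K#2 libraries only, and NDUFB1 is below scrambled siRNA in all 6 siCyclin K libraries.

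Since the strongest changes were seen with 1 siRNA each, the 3′ UTRs of the members were searched for the site that pairs with bases 2 to 8 of each siRNA's guide strand. An siRNA can lower other mRNAs through such sites, in the manner of a microRNA. The site is GTGATAA for siCyclin K#1 and TACAGGT for siCyclin K#2, derived from the target sequences in the study's methods. The longest 3′ UTR of a protein-coding GENCODE 29 transcript was taken for each gene. The sites of ATP5MD, NDUFA5 and NDUFA4, where the siRNAs differed most, are shown with 11 bases on each side and the site in capitals, in GRCh38, all on the minus strand.
ATP5MD, siCyclin K#1, chr10:103389084-103389090: caactcatcatGTGATAAttcaatttgta
NDUFA5, siCyclin K#1, chr7:123541667-123541673: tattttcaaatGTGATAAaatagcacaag
NDUFA5, siCyclin K#1, chr7:123541643-123541649: acaagtggctgGTGATAAaatttgaaatt
NDUFA5, siCyclin K#1, chr7:123538399-123538405: acagtgggaatGTGATAAggggtttgaat
NDUFA5, siCyclin K#2, chr7:123541374-123541380: ttcccattgcaTACAGGTtattggagaaa
NDUFA4, siCyclin K#2, chr7:10932844-10932850: gtagccgggacTACAGGTatgtgccacca

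The ATP5MD site starts 80 nucleotides after the stop codon and was in the 3′ UTR of 5 of 5 protein-coding transcripts. NDUFA5 held 3 sites for siCyclin K#1 in its longest 3′ UTR, and at least 1 in 5 of 5 transcripts. The NDUFA4 site starts 786 nucleotides after the stop codon of its single transcript. NDUFA5 also held 1 site for siCyclin K#2, with which it was higher than in scrambled cells.

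Sites were also found in members that did not fall. For siCyclin K#1, 6 of 80 members held a site (7.5%), against 10.6% of 11406 tested genes with a 3′ UTR. Of these 6, ATP5MD, NDUFA5 and UQCRFS1 (log2 fold change -0.38) fell with siCyclin K#1, whereas ATP5S (0.51), NDUFB2 (0.41) and SDHC (0.30) rose. For siCyclin K#2, 14 of 80 members held a site (17.5%), against 13.2% of genes. Apart from NDUFA4, these included genes such as ATP5F1A and NDUFS3, with log2 fold changes of -0.14 and 0.15. Over all genes, the median log2 fold change with siCyclin K#1 was -0.09 for genes with its site and 0.16 for those without, and with siCyclin K#2 the medians were 0.04 and 0.06. In the members these medians were -0.04 with and -0.14 without the site for siCyclin K#1, the opposite order, and -0.09 and -0.11 for siCyclin K#2. Of 23 windows around the siCyclin K#2 site in 13 members, 17 in 11 members had the letters ggat or ggac just before the site, NDUFA4 among them. COX6C, COX7A2, ATP5ME and NDUFA8, also lower with siCyclin K#1, had no siCyclin K#1 site in the 3′ UTR searched, and COX6C held a siCyclin K#2 site. The part of these sites in the changes was not tested.

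Complex I oxidizes NADH and is the largest complex of the chain. Of its core subunits, NDUFS1, which carries iron-sulphur clusters, fell with each siRNA (-0.27 and -0.31), as did NDUFS8 (-0.28 and -0.17). NDUFS3 rose slightly with each (0.12 and 0.15), on a row shared with PTPMT1. NDUFV1, the subunit that binds NADH, was at 15.7 in scrambled cells and had values of 0.15 and -0.14, with adjusted p-values of 0.033 and 0.047 in limma. Each of these calls was lost without any 1 of several libraries, among them each scrambled library. The difference between the siRNAs was 0.29 (adjusted p = 0.0019). In all, 3 of 6 core subunits were higher and 2 lower with siCyclin K#1, and 2 were higher and 3 lower with siCyclin K#2.

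The 20 accessory subunits of the membrane arm, which pumps protons, were lower in 11 cases with siCyclin K#1 and in 11 with siCyclin K#2, 9 of them shared, and higher in 5 and 4. The lower share was 55% with each siRNA, against 18.1% and 15.2% of all tested genes, of which 10.3% fell with both. The higher shares of 25% and 20% were near the 26.8% and 19.8% of all genes. NDUFB1 stood at 6.12, 7.31 and 6.43 in scrambled cells, 4.36, 3.34 and 3.15 with siCyclin K#1, against 4.19, 3.49 and 3.72 with siCyclin K#2. It fell by 0.87 and 0.79 (adjusted p = 0.00059 and 0.0015 in limma), and the siRNAs differed by -0.08 (95% interval -0.37 to 0.22). NDUFB10 was tighter, with 51.1 to 53.3 in scrambled cells, 31.5 to 35.7 with siCyclin K#1 and 32.8 to 36.3 with siCyclin K#2, falls of 0.62 and 0.59. NDUFA3, NDUFB3, NDUFB4, NDUFB8, NDUFB11, NDUFC2 and NDUFA11 also fell with each siRNA, by 0.17 to 0.61, those of NDUFB8, NDUFC2 and NDUFA11 on rows joined with other genes. NDUFB6 rose from 35.5 ± 1.4 to 48.1 ± 1.3 and 44.8 ± 0.63 (SD, n = 3), or by 0.44 and 0.33, and NDUFB2 and NDUFC1 rose with each siRNA by 0.30 to 0.41. NDUFS5 had the highest level of the complex, at 176 ± 2.4 in scrambled cells, and a log2 fold change of 0.09 with siCyclin K#1 (adjusted p = 0.038 in limma).

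Of the 9 accessory subunits of the matrix arm, NDUFV3 fell with each siRNA (-0.45 and -0.40), and NDUFS4, which is needed for a stable NADH-binding module, rose with each (0.36 and 0.32). NDUFS6, which is needed late in assembly, fell by 0.22 with siCyclin K#1. Its FPKM was 17.7, 18.7 and 17.8 in scrambled cells, 15.6, 16.3 and 14.6 with siCyclin K#1, against 19.8, 21.4 and 19.5 with siCyclin K#2. The value of 0.16 with siCyclin K#2 had an adjusted p of 0.049, which was lost without any 1 of 7 libraries. The direct difference was -0.38 (adjusted p = 0.00084 in limma). Over complex I, the median log2 fold change was -0.08 with siCyclin K#1 and -0.11 with siCyclin K#2. The first was -0.21 without siCyclin K#1 library 1, and -0.15 and -0.13 without scrambled libraries 1 and 2.

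Complex II oxidizes succinate and is also an enzyme of the tricarboxylic acid cycle. It was the only complex whose median was above 0 with each siRNA, at 0.15 and 0.38, over 4 genes. Its summed FPKM was 54.7 to 56.7 in scrambled cells, 56.8 to 63.8 with siCyclin K#1 and 71.7 to 81.4 with siCyclin K#2. SDHA, the flavoprotein subunit, stood at 14.6, 13.0 and 15.6 in scrambled cells, 21.7, 18.5 and 20.3 with siCyclin K#1, against 18.8, 19.3 and 24.5 with siCyclin K#2. It rose by 0.49 and 0.53 (adjusted p = 0.0069 and 0.0061 in limma), with all siCyclin K libraries above the scrambled ones. SDHB, the iron-sulphur subunit, was at 24.0, 23.0 and 22.7 in scrambled cells, 21.4, 19.8 and 22.9 with siCyclin K#1, against 37.2, 37.5 and 38.6 with siCyclin K#2. It rose with siCyclin K#2 by 0.70 (adjusted p = 1.7e-05), whereas the value with siCyclin K#1 was -0.12 (adjusted p = 0.10) in libraries that overlapped the scrambled ones. The siRNAs differed by -0.82 (95% interval -0.94 to -0.70, adjusted p = 1.1e-05). The membrane anchors moved less. SDHC was 0.30 higher with siCyclin K#1 (adjusted p = 0.041) and SDHD 0.26 lower with siCyclin K#2 (adjusted p = 0.044), and both calls were lost without most of the single libraries. SDHD lies on a row joined with 4 other genes, BCO2 among them. 

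Complex III moves electrons from ubiquinol to cytochrome c. UQCRQ, a small accessory subunit, stood at 40.1, 43.1 and 44.3 in scrambled cells, 30.8, 29.9 and 29.1 with siCyclin K#1, against 30.6, 32.7 and 27.5 with siCyclin K#2. Groups did not overlap, and it fell by 0.50 and 0.49 (adjusted p = 0.00024 and 0.00044 in limma). UQCRB fell by 0.24 and 0.47, and UQCR10 by 0.18 and 0.20. Of the 6 accessory genes 3 fell with each siRNA and 0 rose in limma, and 0 rose at an unadjusted p under 0.05. The core proteins UQCRC1 and UQCRC2 rose with siCyclin K#1 by 0.24 and 0.31, and their values with siCyclin K#2 were 0.01 and 0.00. They differed between the siRNAs by 0.23 and 0.31 (adjusted p = 0.0022 and 0.00025). UQCRFS1, the Rieske iron-sulphur protein and the gene of this complex with the highest level (117 ± 2.1 in scrambled cells), was 108, 86.8 and 78.8 with siCyclin K#1. It fell by 0.38 (adjusted p = 0.012), with a value of -0.08 for siCyclin K#2. UQCRHL, a near copy of UQCRH, had the lowest FPKM, at 1.02 ± 0.27. Over the complex, siCyclin K#1 had 2 genes higher and 4 lower. With siCyclin K#2, 3 were lower and 0 higher in limma, also at an unadjusted p under 0.05, and the median of -0.08 was -0.05 without siCyclin K#2 library 1.

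Complex IV reduces oxygen to water, and its 9 ubiquitous nuclear subunits leaned to lower values, with log2 fold changes between -0.66 and -0.00 for siCyclin K#1. Of these 9 genes 7 fell with siCyclin K#1 and 4 with siCyclin K#2, and 0 rose with either, also at an unadjusted p under 0.05. The lower shares were 77.8% and 44.4%, against 18.1% and 15.2% of all tested genes. Among genes whose FPKM averaged 1 or more, 27.8% and 22.4% were lower. Of all tested genes 26.8% and 19.8% were higher. COX5B, which lies on the matrix side of the enzyme, stood at 56.7, 57.5 and 55.6 in scrambled cells, 40.5, 40.2 and 38.9 with siCyclin K#1, against 40.1, 41.0 and 39.2 with siCyclin K#2. It fell by 0.51 and 0.50 (adjusted p = 2.5e-06 and 5.3e-06 in limma), to 70.4% and 70.8% of the scrambled mean, and the siRNAs differed by -0.01 (95% interval -0.08 to 0.06). COX7C and COX6A1 fell with each siRNA as well, by 0.34 to 0.59. COX6B1, at 179 ± 4.3 the gene of the complex with the highest level, fell by 0.12 with siCyclin K#2 (adjusted p = 0.023), a call lost without scrambled library 1 or siCyclin K#2 library 1 or 3. Its value of -0.03 with siCyclin K#1 turned to 0.14 under quantile normalization. COX7B had values of -0.00 and -0.02. The tissue-restricted forms were low, with COX7A1 at 0.541 and COX6B2 at 0.0963 FPKM in scrambled cells, against 23.1 for the ubiquitous COX7A2 and 179 for COX6B1. Neither form passed the test. The summed FPKM of the 13 genes was 509 to 533 in scrambled cells, 434 to 468 with siCyclin K#1 and 416 to 442 with siCyclin K#2.

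ATP synthase makes ATP with a catalytic head (F1) that is turned by a ring of c subunits in the membrane and held by a peripheral stalk. ATP5MC1, one of 3 genes for the same c subunit, stood at 40.2, 38.4 and 36.0 in scrambled cells, 20.2, 18.9 and 19.1 with siCyclin K#1, against 27.9, 27.96 and 25.3 with siCyclin K#2. The groups were apart from each other, and it fell by 0.98 and 0.50 (adjusted p = 1.7e-06 and 0.00016 in limma), with a difference of -0.48 between the siRNAs (adjusted p = 0.00029). ATP5MC3 fell by 0.43 and 0.28, and ATP5MC2 had values of -0.07 and -0.01. In the stalk, ATP5PB rose from 31.2 ± 0.18 to 37.2 ± 0.15 and 39.7 ± 1.1 (SD, n = 3), or by 0.25 and 0.35, and ATP5PF rose by 0.17 and 0.25, while ATP5PD fell by 0.18 and 0.31. The catalytic subunit gene ATP5F1B had the highest FPKM of all members, at 297 ± 16, and values of -0.13 and -0.18 that did not pass the test. Of the 5 genes of F1, ATP5F1C fell with siCyclin K#1 (-0.16) and ATP5F1A with siCyclin K#2 (-0.14), and none passed with both. Among the small membrane subunits, ATP5MPL fell with each siRNA (-0.37 and -0.52), and ATP5MF, on a row joined with PTCD1, rose with each (0.32 and 0.33). ATP5S, also called distal membrane arm assembly component 2 like, had a low FPKM of 1.74 and rose by 0.51 and 0.29. The latter call, at an adjusted p of 0.026, was lost without scrambled library 2 or 3 or siCyclin K#2 library 1 or 3. The median of the 19 tested genes was -0.13 with siCyclin K#1 and -0.14 with siCyclin K#2. The first was -0.08 without siCyclin K#1 library 2, and the second -0.02 without scrambled library 2 and -0.09 without siCyclin K#2 library 1.

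**Figure D3:**
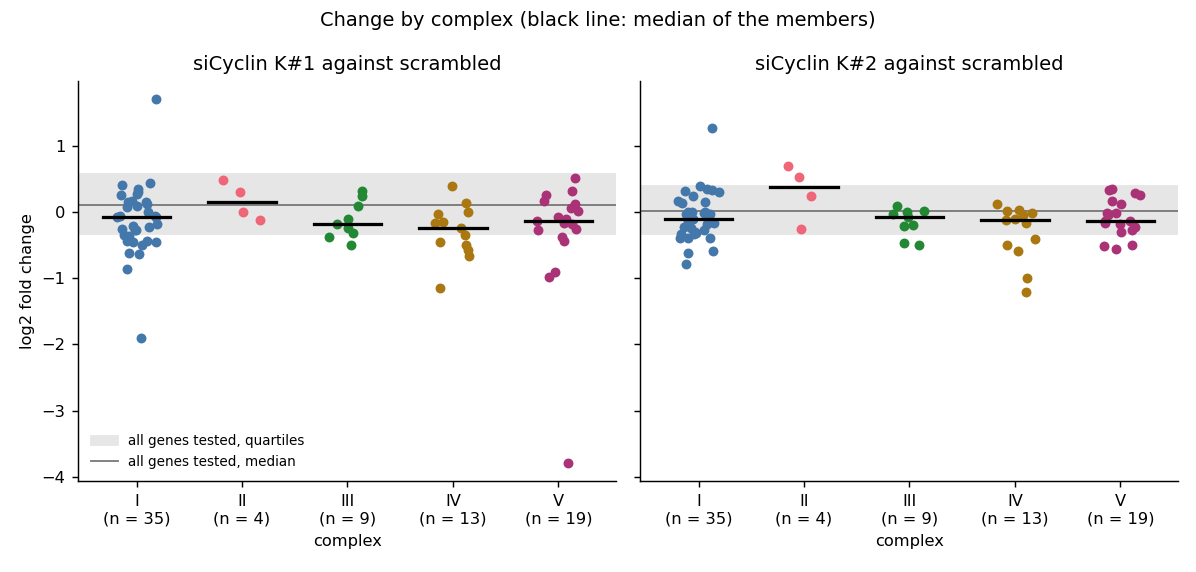
Log2 fold change of each tested member against scrambled siRNA by complex, for siCyclin K#1 (left) and siCyclin K#2 (right), with the median of the members as a black line and the median and quartiles of all tested genes as a grey line and band. The medians of complexes I, III, IV and V lie below that of all genes in both panels, and that of complex II above it.

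Several members had 1 library far from the other libraries of its group. COX7A2L, a factor that joins complexes III and IV into supercomplexes, was at 31.96, 31.9 and 31.5 in scrambled cells. With siCyclin K#1 it was at 24.2, 10.98 and 11.1, and with siCyclin K#2 at 11.7, 12.4 and 27.4, so that 1 library of each siRNA lay nearer to the scrambled ones than the other 2. Its log2 fold change was -1.14 with siCyclin K#1 (SE 0.38, adjusted p = 0.036) and -1.002 with siCyclin K#2 (adjusted p = 0.072). The first call was lost under eBayes without trend, with no filter on low values, and without any of the scrambled libraries or siCyclin K#1 library 2 or 3, and the second was gained without siCyclin K#1 library 1 or, at -1.397, without siCyclin K#2 library 3. All 6 siCyclin K libraries were below the scrambled ones (exact permutation p = 0.0238, the smallest that 3 against 6 libraries can give). ATP5F1D, the delta subunit of F1, was at 9.36, 9.45 and 9.19 in scrambled cells, but at 14.2, 5.73 and 5.84 with siCyclin K#1, and at 5.27, 6.87 and 7.02 with siCyclin K#2. Library 1 of siCyclin K#1 lay above and the other siCyclin K libraries below the scrambled ones, and neither difference passed the test (adjusted p = 0.55 and 0.21 in limma). NDUFA12 was between 13.0 and 15.2 in 7 libraries and at 23.2 and 24.4 in siCyclin K#1 library 3 and siCyclin K#2 library 2. Library 1 of siCyclin K#1 stood apart for both COX7A2L and ATP5F1D, and also for the assembly factor NDUFAF8, at 11.7 against 5.15 and 4.79 in the other siCyclin K#1 libraries, but not for NDUFA12.

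**Figure D4:**
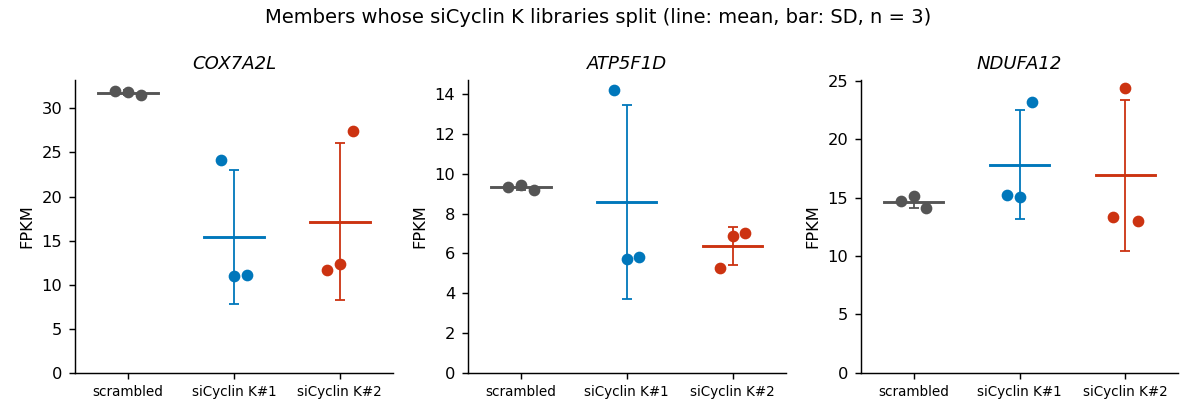
FPKM of COX7A2L, ATP5F1D and NDUFA12 in each library, with the mean as a line and the SD as a bar (n = 3 for each group). The 3 scrambled libraries sit close together for each gene, while 1 library of siCyclin K#1 or siCyclin K#2 lies apart from the other 2.

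The members are short genes. The median length from start to end was 12.3 kb over the 80 tested members and 32.5 kb over 11475 tested protein-coding genes, and the members lie on 22 chromosomes. Length went with the change among protein-coding genes, and in the members the class under 10 kb was the lowest. Among protein-coding genes the median log2 fold change with siCyclin K#1 was -0.04 for those under 10 kb, 0.10 at 10 to 30 kb, 0.13 at 30 to 100 kb and 0.36 over 100 kb. With siCyclin K#2 these medians were -0.12, 0.04, 0.07 and 0.23. Of the 35 members under 10 kb, 20 were lower and 3 higher with siCyclin K#1 (57.1% lower, against 31.1% of 2258 protein-coding genes of that length). With siCyclin K#2, 19 of them were lower and 0 higher in limma, also at an unadjusted p under 0.05, against 28.7% lower and 17.2% higher among protein-coding genes. For the 29 members of 10 to 30 kb, the counts were 11 lower and 9 higher with siCyclin K#1, and 7 lower and 10 higher with siCyclin K#2. The median of the members under 10 kb was -0.25 with siCyclin K#1 and -0.22 with siCyclin K#2. At 10 to 30 kb the medians of the members were -0.03 and 0.008, and at 30 to 100 kb they were 0.004 and 0.004. The members thus did not show the step-by-step rise of the other genes over these classes, and only 3 members were over 100 kb. The part of gene length in the changes was not tested.

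**Figure D5:**
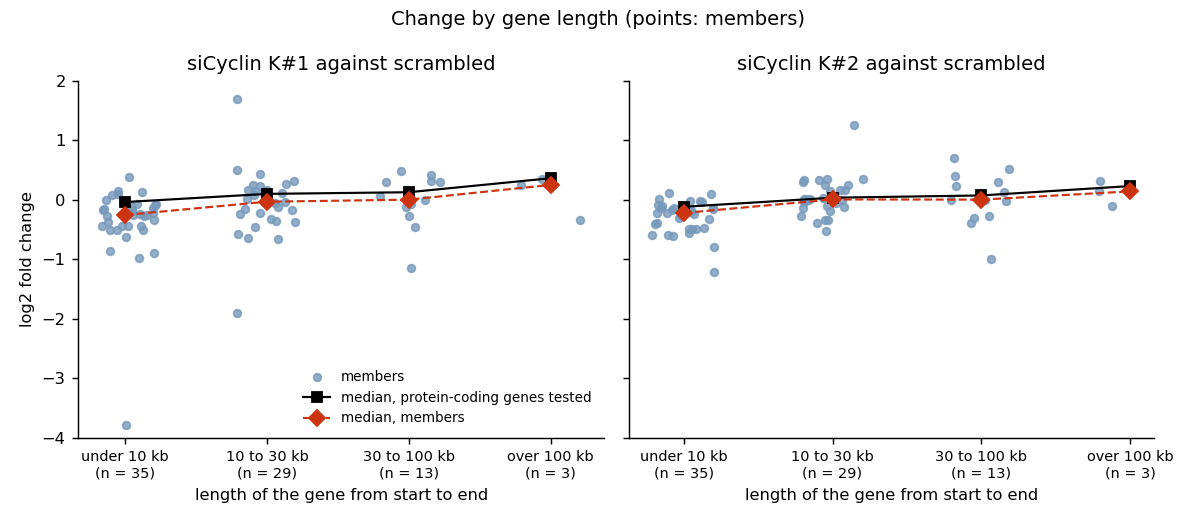
Log2 fold change of the members by length class of the gene, for siCyclin K#1 (left) and siCyclin K#2 (right), with the median of the members (dashed line) and of all tested protein-coding genes (solid line) in each class. Both medians are lowest in genes under 10 kb, at -0.25 and -0.04 with siCyclin K#1, and highest in genes over 100 kb, a class with 3 members.

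Many respiratory chain promoters are known to bind the nuclear respiratory factors NRF1 and GABP, an ETS protein, and YY1. RefSeq promoter windows (GRCh38.p14), 250 bases before to 50 after the start of the gene, were matched for 59 members and 9324 tested genes, and both strands were searched. The NRF1 core CGCATGCG was in 10 of 59 member promoters (16.9%) and in 3.92% of all promoters. The ETS core CCGGAAG was in 30.5% and 18.1%, the YY1 core AAGATGG in 28.8% and 7.44%, and the cyclic AMP response element TGACGTCA in 6.78% and 3.28%. ATP5ME held all 4 motifs, and SDHB, a complex II gene that rose with siCyclin K#2, held 3. SDHA, which rose with each siRNA, held none of the 4. The windows of ATP5ME and SDHB are printed 5′ to 3′ on the strand of the gene. This is the minus strand for each, and the motifs are in capitals.
ATP5ME, chr4:674227-674526: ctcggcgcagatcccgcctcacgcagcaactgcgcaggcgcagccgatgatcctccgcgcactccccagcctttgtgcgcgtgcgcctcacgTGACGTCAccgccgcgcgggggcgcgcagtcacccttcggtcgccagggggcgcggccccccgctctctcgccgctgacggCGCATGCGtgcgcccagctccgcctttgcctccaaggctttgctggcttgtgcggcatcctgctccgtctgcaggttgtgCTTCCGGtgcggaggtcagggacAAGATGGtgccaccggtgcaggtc
SDHB, chr1:17053983-17054282: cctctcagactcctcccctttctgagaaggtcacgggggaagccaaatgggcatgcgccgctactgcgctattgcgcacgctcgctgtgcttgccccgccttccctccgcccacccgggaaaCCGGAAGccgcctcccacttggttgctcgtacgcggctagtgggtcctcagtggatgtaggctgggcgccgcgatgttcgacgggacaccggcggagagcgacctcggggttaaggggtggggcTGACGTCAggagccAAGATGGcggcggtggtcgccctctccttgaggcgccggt

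Among the regulators of mitochondrial biogenesis, TFAM packages mitochondrial DNA and takes part in starting its transcription. It fell from 41.3 ± 2.7 to 22.3 ± 0.89 and 23.9 ± 1.6 (SD, n = 3), or by 0.89 and 0.79 (adjusted p = 6.2e-06 and 2.2e-05 in limma). TEFM, the elongation factor of mitochondrial transcription, fell by 0.42 and 0.32. The factors NRF1 and GABPA had values of -0.21 and 0.05, and of -0.08 and 0.17, which did not pass the test, and PPARGC1A was at 0 to 0.00739 FPKM on average. Of 14 regulators tested, 5 were lower and 0 higher with siCyclin K#1, with 1 higher at an unadjusted p under 0.05, and 3 were lower and 3 higher with siCyclin K#2. The 7 mRNAs of the mitochondrial genome that were found, which encode the partners of these subunits, had medians of -0.14 and -0.27. All 7 fell with siCyclin K#2 and 4 fell with siCyclin K#1. MT-ND2, a complex I subunit, went from 5737 to 4583 and 4737 FPKM, and MT-ND4 fell by 0.23 and 0.33.

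Assembly factors of complex I were lower in 8 of 17 cases with siCyclin K#1 and in 8 with siCyclin K#2, and higher in 3 and 4. These shares were 47.1% lower with each siRNA, and 17.6% and 23.5% higher. Of all tested genes, 18.1% and 15.2% were lower with siCyclin K#1 and siCyclin K#2, and 26.8% and 19.8% higher. NDUFAF3 fell from 13.3 ± 1.2 to 4.26 ± 0.55 and 4.92 ± 0.16 FPKM (SD, n = 3), or by 1.62 and 1.41 (adjusted p = 2.4e-06 and 1e-05 in limma), and NDUFAF8 fell by 1.68 and 1.25. NUBPL, which delivers iron-sulphur clusters to complex I, rose from 0.982 ± 0.032 to 3.80 ± 0.28 and 2.70 ± 0.22. Of the assembly factors of complex IV, 7 of 21 were higher and 4 lower with siCyclin K#1, and 5 were higher and 5 lower with siCyclin K#2. The shares with siCyclin K#1, 33.3% higher and 19.0% lower, were near those of all genes. With siCyclin K#2 they were 23.8% each way. COX20 and PET117 rose with each siRNA by 0.77 to 1.03, and COA4 fell by 1.19 and 0.59. TMEM70, needed to assemble ATP synthase, fell by 0.77 and 0.80, and it was the 1 of 3 factors of complex V that passed the test. SDHAF2 (complex II, 1 of 4 lower with each siRNA, and 1 higher with siCyclin K#2) fell by 0.28 and 0.22. BCS1L (complex III) fell by 0.26 and 0.16, with 1 of 6 factors lower with siCyclin K#1, and 2 lower and 1 higher with siCyclin K#2.

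In the tricarboxylic acid cycle, which feeds the chain, siCyclin K#1 had 3 of 11 genes higher and 4 lower, and siCyclin K#2 had 4 higher and 3 lower. The shares with siCyclin K#1 were 27.3% higher and 36.4% lower, against 26.8% and 18.1% of all tested genes. With siCyclin K#2 they were 36.4% and 27.3%, against 19.8% and 15.2%. The isocitrate dehydrogenase subunits IDH3B and IDH3G fell by 0.36 to 0.48. Of 8 further partners of the chain, 3 were higher and 3 lower with siCyclin K#1, and 2 higher and 1 lower with siCyclin K#2. The shares were 37.5% each way with siCyclin K#1, and 25% higher and 12.5% lower with siCyclin K#2, beside those of all genes above. DHODH, which passes electrons to ubiquinone from pyrimidine synthesis, fell by 0.51 with each siRNA, and ETFA rose by 0.20 and 0.22. The 74 mitochondrial ribosomal protein genes, which serve the same organelle, had 25 lower and 7 higher with siCyclin K#1, and 19 lower and 12 higher with siCyclin K#2. Their shares were 33.8% lower and 9.46% higher with siCyclin K#1, against 18.1% and 26.8% of all tested genes. With siCyclin K#2 they were 25.7% and 16.2%, against 15.2% and 19.8%. Their medians of -0.14 and -0.02 stand beside -0.14 and -0.11 for the respiratory chain genes.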

How the data were processed

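RNA of 9 A549 libraries was analysed, grouped by the sample labels into scrambled siRNA and either Cyclin K siRNA. The authors ran paired-end sequencing (Illumina HiSeq X), computed FPKM with StringTie 1.3.3b and deposited these values for each feature. The aligner, filters, strand setting and annotation release are not given in the sources used here. The features carry GRCh38 coordinates, and 78 of 81 member rows had the coordinates of GENCODE 29. With its exon lengths, 84.01% of nonzero values of 27835 features were whole multiples of 1 read (tolerance 0.02), which gave the depth, and 48 members were whole in every library. Such reads cover counting error only.

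Rows of a reference gene were summed. Genes that reached an FPKM of 0.1 in 3 or more libraries entered limma 3.58.1 (R 4.3.3, eBayes with trend) as log2(FPKM + 0.1), in 3 groups, or in 2 when the siRNAs were pooled. A feature that joins several genes (15 members) was counted under its member. The two-sided exact permutation test of single members used scipy 1.17.1. The code was tested on simulated data. Replicates were not duplicates of each other (chi-square per degree of freedom at least 11.6). Replicate numbers come from the labels and were not used to pair the samples in the main fits.

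The members, gene lists and tests were chosen with earlier results of these data known. Named members were, per complex, the 2 highest and 2 lowest pooled changes and the highest and lowest levels, members past a fold change of 3, of opposite direction, or differing by at least 0.5 between the siRNAs, and the tissue-restricted forms. From each other list, up to 3 genes with the largest change were named, with the regulators PPARGC1A, NRF1, GABPA and TFAM. Other members, among them NDUFB10, COX5B, ATP5PB, ATP5F1D and NDUFA12, were named after their values were seen. NDUFV2 and COX8A were not analysed here, and some genes that the rule names are not reported here. Alternatives were other pseudocounts, filters and scalings, a replicate block, no trend in eBayes, each library left out in turn, the highest row per gene, loci without a reference gene, and members on joined rows left out.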

Additional observations from a re-analysis of the deposited data

Results flagged for a closer look

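The siRNAs differed in their effect on 6 members that passed the test with each siRNA in opposite directions, or that differed by at least 1 in log2, each by limma's test of siCyclin K#1 against siCyclin K#2. The difference in log2 was -3.631 for ATP5MD, -2.244 for NDUFA5 and 1.342 for NDUFA4, and it was -0.8814 for NDUFA8, -0.382 for NDUFS6 and 0.294 for NDUFV1. All 6 differences kept their call under each alternative that gave a value. The calls against scrambled siRNA of NDUFV1 with each siRNA, of NDUFA8 and NDUFS6 with siCyclin K#2 and of NDUFA4 with siCyclin K#1 did not. The part of the siRNA sites in the 3′ UTR was not tested.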

How the results depend on the processing

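Of 480 comparisons of a count or median with its value under an alternative, 453 moved by no more than the set limit and 27 moved further. Members higher with siCyclin K#1 numbered 11 under eBayes without trend, with loci included and under median-ratio rescaling (18 as reported), and 6 members were higher in the direct comparison of siCyclin K#1 against siCyclin K#2 without trend (12 as reported). Past a fold change of 3 between the siRNAs, 1 member was left with a pseudocount of 1 and with joined rows left out. Under median-ratio rescaling the medians for siCyclin K#1 were -0.2003 (all members), -0.1567 (complex I), -0.2576 (III), -0.3166 (IV) and -0.2037 (V), and for siCyclin K#2 they were -0.1567 (all) and -0.1921 (V). Under quantile normalization they were -0.1707 (complex I, siCyclin K#1), -0.1667 (I, siCyclin K#2) and -0.09196 (V, siCyclin K#2), and COX6B1 with siCyclin K#1 turned from -0.03056 to 0.1443. That scaling moved the median of all genes with siCyclin K#1 from 0.1019 to -0.0188. With joined rows left out the medians were 0.2984 (complex II, siCyclin K#1) and -0.1356 (III, siCyclin K#2), and with a mean FPKM of at least 1 complex IV had -0.3443 with siCyclin K#1. The cause was not tested. The median of all members was below 0 with each siRNA under every alternative run.

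Leaving out each library gave 11 to 17 members higher with siCyclin K#1, 6 to 11 higher in the direct comparison, and medians with siCyclin K#1 of -0.2149 to -0.05723 (complex I) and -0.3558 to -0.1961 (IV), and with siCyclin K#2 of -0.167 to -0.02494 (V). The replicate block gave 13 higher and 34 lower members for siCyclin K#1, 13 higher and 28 lower for siCyclin K#2, 8 higher and 12 lower in the direct comparison, and 8 higher and 20 lower for the pooled siRNAs, and COX7A2L with siCyclin K#1 did not pass. Deviations of same-numbered libraries had correlations of -0.0711 to 0.0379, and not every library correlated best with its own number. These values showed no pairing by number. With 3 libraries a group they cannot tell whether same-numbered samples were prepared together. With 3 libraries a group, an exact test of 3 against 3 cannot go below 0.1.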
